A study of Homo sapiens with 9 samples.

Results

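In HepG2 cells exposed for 72 h to 2 concentrations of tris(2-butoxyethyl) phosphate (TBOEP), 514 of 12901 genes tested (3.98%) stood outside both other groups at the lower one. All 3 libraries at 2.5 µM lay above the 6 libraries of the control and of 125 µM in 245 genes (1.90% of those tested) and below them in 269 (2.09%). Levels are in CPM, reads scaled to the size of each library. The genes were found from the order of these levels in the 9 libraries, and beside it every gene was tested for the contrast of 2.5 µM against the average of the control and 125 µM on the log2 scale. Both criteria, the order and an adjusted p below 0.05 for the contrast (edgeR, quasi-likelihood test), were met by 71 genes (0.550%), 38 above (0.295%) and 33 below (0.256%). Both use the same reads, so neither is independent evidence for the other.

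HepG2 is an established line from a human liver carcinoma that keeps many hepatocyte functions, and TBOEP is an organophosphate ester used as plasticiser and flame retardant. The 9 cultures were 3 controls with 0.1% DMSO, 3 with 2.5 µM TBOEP and 3 with 125 µM TBOEP, the treated ones in the same 0.1% DMSO. Each culture was seeded, treated with its own compound solution, extracted and sequenced separately, from cells kept under 25 passages, and the labels describe both concentrations as not cytotoxic. All results therefore come from 1 cell line and 1 time point.

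A response is called non-monotone when the middle dose does not lie between its neighbours, so a comparison of the highest dose with the solvent can miss it. Several gene groups below are textbook programmes: immediate early genes are switched on by growth factor and ERK signalling through serum response factor, and glycolytic genes by the hypoxia-inducible factors. Genes of mitosis are transcribed late in the cell cycle, and the mitochondrial genome is transcribed as long polycistronic RNAs that are cut into the messages of respiratory chain subunits.

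Reads assigned to genes ranged from 4023991 to 10058205 in the controls, from 2480964 to 11112322 at 2.5 µM and from 2670690 to 11885877 at 125 µM, so each group held deep and shallow libraries. The 9 hepatocyte markers examined, ALB and APOB among them, were all expressed and took 6.68 to 8.38% of the reads in the controls, 5.32 to 6.75% at 2.5 µM and 3.88 to 4.61% at 125 µM. Of the markers of other cell types, KDR (endothelium), PTPRC and CD3E (immune cells) and COL1A2, DCN and LUM (fibroblasts) had no read. Other markers on these lists were present. The 6 fibroblast markers together took 0.00205 to 0.00231% of reads in the controls, 0.00187 to 0.00259% at 2.5 µM and 0.000976 to 0.00138% at 125 µM. Most of this was PDGFRB, a growth factor receptor, with a mean ± SD of 22.3 ± 2.14 CPM in the controls, 20.8 ± 4.46 at 2.5 µM and 12.2 ± 2.30 at 125 µM. PDGFRB was called lower at 125 µM than in the control (adjusted p = 0.00118) and was not called in the contrast. The bile duct and progenitor list took 0.0297 to 0.0318, 0.0326 to 0.0361 and 0.0388 to 0.0435% in the same order of groups, and its epithelial marker EPCAM was at 177 ± 11.8, 168 ± 11.2 and 158 ± 6.88 CPM. The endothelial list took at most 0.000527% in the controls and 0.000524% at 2.5 µM, and 0.00138 to 0.00175% at 125 µM. The part of these genes in the results was not tested. The immune list took 0.249 to 0.298% of reads in the controls, 0.252 to 0.278% at 2.5 µM and 0.189 to 0.210% at 125 µM, nearly all of it LYZ. Reads from introns of nuclear genes made up 7.74, 5.33 and 4.93% of reads in the libraries at 2.5 µM, 6.87% ± 0.628 in the 3 controls and 5.23% ± 0.298 in the 3 at 125 µM (mean ± SD). The mean at 2.5 µM differed from that of the 6 others by -0.0487 percentage points (exact permutation test over 84 splits, two-sided, p = 0.94).

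The contrast asked which genes at 2.5 µM differed from the level midway between solvent and 125 µM. In edgeR's quasi-likelihood test 144 genes passed (1.12%), 87 higher (0.674%) and 57 lower (0.442%), and 1119 and 831 had an unadjusted p below 0.05. Of the 87 higher, 38 had all libraries at 2.5 µM above the others, and of the 57 lower, 33 had them all below. The remaining 73 overlapped another group in at least 1 library. All 24 of them that were lower were also lower than at 125 µM by the pairwise test and none was lower than the control, and 125 µM was itself above the control in all 24. Of the 49 that were higher, 30 had 125 µM called below the control and 17 had it called above. These 73 genes are described below only where a gene list holds them.

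**Figure D1:**
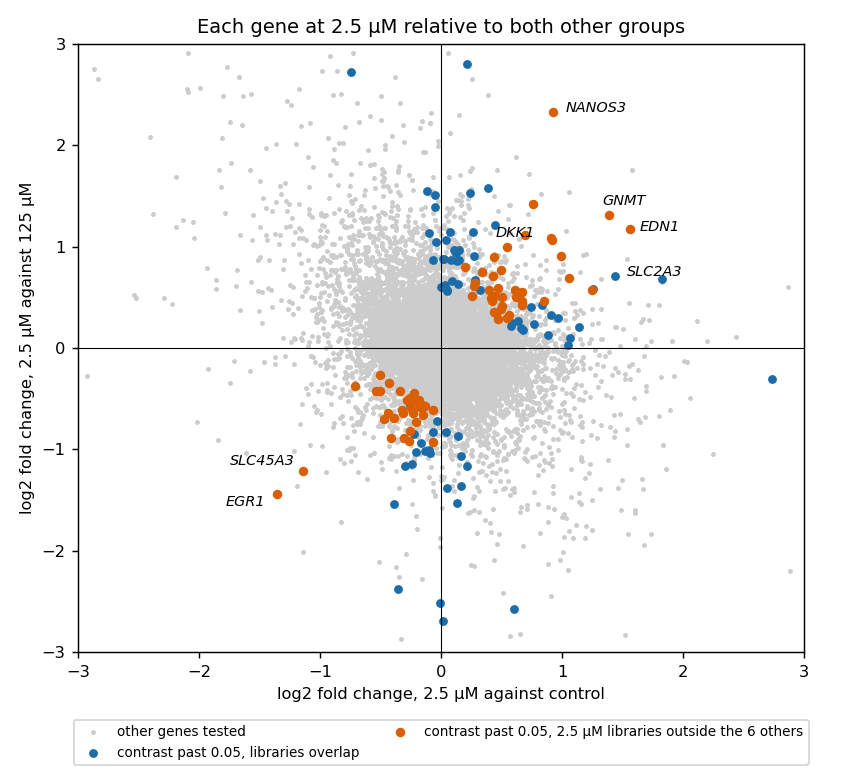
Each point is 1 of the genes tested, with its log2 fold change at 2.5 µM against control (horizontal) and against 125 µM (vertical), which share the 2.5 µM libraries. Orange points, the 71 genes past 0.05 in the contrast with all 2.5 µM libraries outside the others, lie at the upper right and lower left; blue points passed the contrast but overlap; 18 genes, no orange one, lie beyond the plotted range of 3.

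Against each group alone, most of the genes above were called higher than both, and most of those below were called lower than 125 µM only. Of the 38 genes above, 24 were called higher than both the control and 125 µM (0.271% of all genes tested were), 11 higher than 125 µM only and 3 higher than the control only. Of the 33 genes below, 10 were called lower than both (0.140% of all genes, and 0.411% either way), 21 lower than 125 µM only and 2 lower than the control only. For 19 of these 33 genes 125 µM was called above the control, where 20.3% of all genes were. For the 38 genes above, 125 µM was not called different from the control in 28, called lower in 8 (19.9% of all genes were) and higher in 2. The contrast by which these genes were chosen falls as the level at 125 µM rises. The shares with 125 µM called above or below the control therefore depend in part on that choice. These pairwise comparisons share libraries, so their calls are given side by side and not as separate evidence.

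Differences were modest in size. The median fold change in the contrast was 1.47 among the 38 genes above, from 1.30 to 3.09, and 1.35 among the 33 below, from 1.26 to 2.64. A difference of at least 2-fold was seen in 4 genes above (NANOS3, EDN1, GNMT and KRT80) and in 2 below (EGR1 and SLC45A3). Levels ranged widely: the mean over the 9 libraries had a median of 43.5 CPM above (lowest 1.42) and 94.3 CPM below (lowest 8.17), beside 22.0 CPM over all genes tested, and NANOS3, GNMT and KRT80 were among the lowest. As to gene type, matched by symbol, 36 of 38 and 31 of 33 were annotated as protein coding, where 83% of all genes tested were. No symbol match was found for 1 of the 38, 1 of the 33 and 1732 of all 12901 genes tested. Unmatched genes count here as not coding, so these shares cannot be compared directly. Another tested gene overlapped 9 of the 38 and 6 of the 33 (31.5% of all genes tested), and their counts are uncertain where strand was not used. The count of calls depended on single libraries: 144 calls became 13 without replicate 1 of 125 µM, 25 without replicate 3 of 2.5 µM, 27 without replicate 3 of the control, 36 without replicate 3 of 125 µM and 38 without replicate 2 of 2.5 µM. It became 343 without replicate 1 of 2.5 µM and 288 without replicate 2 of the control. Of the 71 genes, the same omissions left 7, 7, 16, 19, 15, 57 and 70 past the threshold, and all 71 kept their direction in each. Some genes described below lost their call in most of the alternative settings that gave them a value. E2F7 passed in 8 of 21, KRT80 in 8 of 20, CTSV in 9 of 21 and FOSL1 in 9 of 22, and LPPR1, SLC45A3, MALAT1, TOP2A and RPL31 each passed in 10 of 22.

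Of the genes below, EGR1 stood furthest from the other groups. It encodes an immediate early zinc finger transcription factor (chromosome 5, 137801179 to 137805004, hg19). Its levels were 26.9, 22.6 and 21.8 CPM in the controls, 11.3, 8.46 and 6.87 at 2.5 µM and 24.8, 26.6 and 24.2 at 125 µM. The highest library at 2.5 µM was far below the lowest of the 6 others, while the control and 125 µM overlapped. The contrast was -1.40 ± 0.14 on the log2 scale, a 2.64-fold fall (adjusted p = 0.000838), with 2.57-fold against the control and 2.71-fold against 125 µM. EGR1 passed the threshold under every one of 22 alternative settings, with an adjusted p of at most 0.0475 and a log2 contrast from -1.62 to -1.30.

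The promoter of EGR1 holds the serum response element motif by which this gene is known, and it is shown for that reason. From RefSeq (GRCh38.p14), the 150 bases before its start, chr5:138465329-138465478 on the plus strand, carry 2 matches to the CArG box, in capitals, that begin 105 and 83 bases before the start.
EGR1: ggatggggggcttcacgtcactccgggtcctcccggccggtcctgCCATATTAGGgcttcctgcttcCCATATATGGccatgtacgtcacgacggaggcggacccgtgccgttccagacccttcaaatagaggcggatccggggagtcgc
A CArG box was found on either strand in the 250 bases before the start in 1.44% of 27305 genes of the RefSeq table. Among the 26 immediate early genes with a promoter in that table, EGR1 and EGR2 had one. A match describes the letters only.

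ZFP36, which encodes an RNA-binding protein that destabilises AU-rich messages, was the other immediate early gene below both groups and past the threshold. It measured 26.4, 21.2 and 23.6 CPM in the controls, 21.0, 19.3 and 18.6 at 2.5 µM and 33.5, 40.9 and 38.2 at 125 µM. The highest library at 2.5 µM lay just under the lowest control, and the distance to 125 µM was larger (contrast -0.59 ± 0.11, adjusted p = 0.0231). The pairwise test called ZFP36 lower than 125 µM (adjusted p = 0.000262) and not lower than the control (adjusted p = 0.184). JUN, a subunit of the AP-1 factor, had the same order, at 174, 143 and 138 CPM in the controls, 122, 111 and 103 at 2.5 µM and 139, 138 and 142 at 125 µM, and missed the threshold narrowly (adjusted p = 0.0511). Of 31 immediate early and ERK feedback genes tested, 4 were lower in the contrast (EGR1, ZFP36, SPRY4 and FOSL1) and none higher, where 0.442 and 0.674% of all genes were. At 2.5 µM 3 of the 31 were called higher than the control and 5 lower (6.02 and 5.03% of all genes were). Against 125 µM, 1 was called higher at 2.5 µM and 9 lower (7.44 and 7.48%). At 125 µM 9 were called higher than the control and 6 lower (20.3 and 19.9%). The libraries at 2.5 µM were all below the others in 3 (9.68%, against 2.09% of all genes) and all above in none. The median contrast of the list was -0.10 beside 0.001 over all genes tested. SPRY4, an inhibitor of receptor tyrosine kinase signalling, and FOSL1, an AP-1 subunit, overlapped the controls. SPRY4 measured 46.9 ± 5.15 and 51.6 ± 6.80 CPM at 2.5 µM and in the controls beside 87.6 ± 9.59 at 125 µM, and it overlaps the feature AC005592.2. The serum response factor gene itself, SRF, had 74.0, 73.8 and 72.3 CPM in the controls, 66.2, 63.1 and 63.0 at 2.5 µM and 79.2, 78.8 and 74.5 at 125 µM, the same order with an adjusted p of 0.118.

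**Figure D2:**
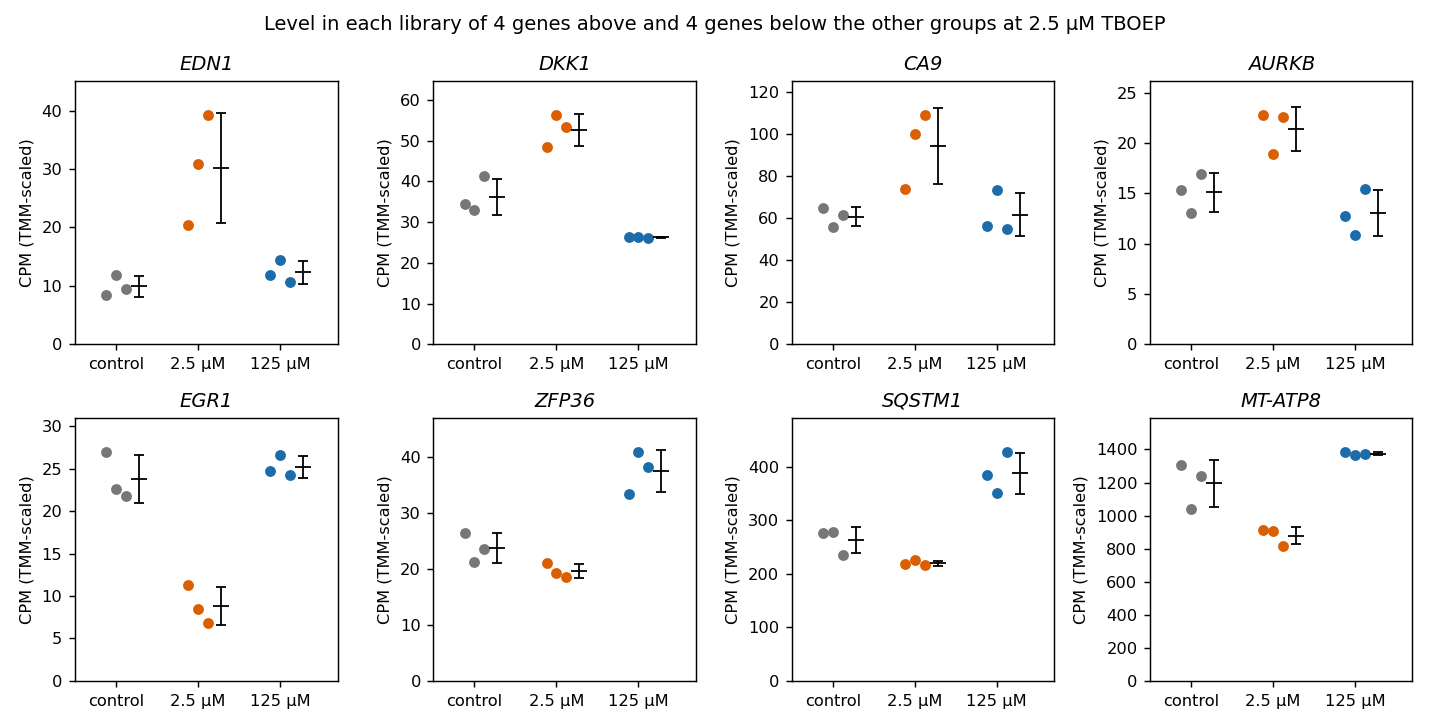
Level in CPM in each library (points) with the mean and SD of the 3 libraries of a group (bars), for 4 genes above and 4 below. EGR1 lay between 6.87 and 11.3 CPM at 2.5 µM and between 21.8 and 26.9 in the 6 other libraries; for SQSTM1 and ZFP36 the gap to the controls was narrow and that to 125 µM wide.

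Several of the genes above, grouped after their values were seen, encode secreted signalling proteins. EDN1 encodes endothelin 1, a vasoactive peptide (chromosome 6, 12290596 to 12297427). It measured 8.39, 11.9 and 9.49 CPM in the controls, 20.5, 30.9 and 39.2 at 2.5 µM and 11.8, 14.4 and 10.6 at 125 µM. The 3 libraries at 2.5 µM differed among themselves but all exceeded the highest other library (contrast 1.37 ± 0.18, a 2.58-fold rise, adjusted p = 0.00606). DKK1, a secreted inhibitor of Wnt signalling (chromosome 10, 54074056 to 54077802), measured 34.5, 33.0 and 41.3 CPM in the controls, 48.4, 56.2 and 53.3 at 2.5 µM and 26.3, 26.4 and 26.1 at 125 µM. Here the 3 groups were all separate from each other: 125 µM was lower than the control (log2 fold change -0.45, adjusted p = 0.00495), and 2.5 µM was higher than both (1.46-fold and 2.00-fold, contrast adjusted p = 0.00241). BMP4, a ligand of the bone morphogenetic protein receptors, rose from 88.3, 97.5 and 103 CPM in the controls and 105, 103 and 97.3 at 125 µM to 125, 143 and 141 (contrast 0.46 ± 0.08, adjusted p = 0.0171). PKDCC, a secreted tyrosine kinase, measured 24.4, 25.2 and 29.9 CPM at 2.5 µM beside 10.9, 18.4 and 15.1 in the controls and 19.8, 19.6 and 15.4 at 125 µM (adjusted p = 0.0408). DKK1 passed the threshold in 21 of 22 alternative settings, and EDN1 in 19.

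Other genes above encode proteins of the cell surface, endosomes or lysosomes. They were picked from the called genes after their values were seen, with no list or test behind the grouping. CDH2, the neural cadherin, measured 93.0, 101 and 118 CPM at 2.5 µM, 65.1, 90.8 and 81.3 in the controls and 64.6, 74.2 and 68.3 at 125 µM (contrast 0.48 ± 0.10, adjusted p = 0.0388). IGLON5, an immunoglobulin-type adhesion protein of neurons, was at 13.9, 10.6 and 16.2 CPM beside 7.23, 6.53 and 6.93 in the controls and 6.67, 6.64 and 3.67 at 125 µM, a 1.99-fold rise (adjusted p = 0.0182). LPPR1, a neuronal membrane protein, was at 23.9, 19.6 and 29.5 CPM beside 8.60, 17.8 and 12.3 in the controls and 7.65, 15.1 and 9.18 at 125 µM, with a wide spread inside each group (adjusted p = 0.0446). RAB11FIP4, an effector of the recycling endosome GTPase Rab11, had the most reads of these. It measured 88.7, 109 and 107 CPM in the controls, 149.6, 114 and 148 at 2.5 µM and 73.8, 71.1 and 76.3 at 125 µM, where 125 µM was also below the control (contrast 0.66 ± 0.10, adjusted p = 0.0112). Outside that grouping, DCDC2, a microtubule-binding protein of cilia, rose to 54.6, 51.6 and 81.2 CPM from 16.0, 36.2 and 26.7 in the controls and lay close to 37.1, 49.3 and 30.8 at 125 µM. Its difference was called against the control (2.37-fold) and not against 125 µM (adjusted p = 0.11). ENPP3, an ectonucleotidase, and CTSV, a lysosomal cathepsin, also rose, by 0.44 ± 0.09 and 0.90 ± 0.19 on the log2 scale.

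NANOS3, a germ cell RNA-binding protein, had the largest contrast of the genes above and was low in every library (chromosome 19, 13972877 to 13991571). It measured 1.36, 1.39 and 1.03 CPM in the controls, 2.58, 2.23 and 2.83 at 2.5 µM and 0.485, 0.498 and 0.367 at 125 µM (contrast 1.63 ± 0.28, adjusted p = 0.0183). The 3 groups did not overlap, but 89.2% of its reads were assigned to introns. The pairwise test called NANOS3 higher than 125 µM (adjusted p = 0.00088) and not higher than the control (adjusted p = 0.0712). It also called 125 µM lower than the control (adjusted p = 0.0163), on 4, 6 and 1 reads at 125 µM. KRT80, an epithelial keratin, was also low, with 2.77, 3.44 and 3.23 CPM at 2.5 µM beside 1.78, 1.78 and 2.05 in the controls and 1.09, 1.33 and 0.734 at 125 µM, and its adjusted p of 0.0471 lay close to the threshold. The pairwise test called KRT80 higher than 125 µM (adjusted p = 0.0061), on 9, 16 and 2 reads there, and not higher than the control (adjusted p = 0.102).

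Several genes of liver metabolism and secretion, also grouped after their values were seen, were above. GNMT, the glycine N-methyltransferase that consumes S-adenosylmethionine, measured 1.36, 1.39 and 1.03 CPM in the controls, 4.11, 2.60 and 3.64 at 2.5 µM and 1.46, 1.24 and 1.47 at 125 µM (contrast 1.35 ± 0.26, adjusted p = 0.027). Its reads in the controls, 13, 7 and 4, happen to equal those of NANOS3. Its lowest library at 2.5 µM was still above every other, and it overlaps PEX6, whose reads could not be separated from it if strand was not used in counting. SLC2A2, the glucose transporter GLUT2 of hepatocytes, measured 7.55, 16.4 and 11.3 CPM in the controls, 22.3, 21.2 and 29.5 at 2.5 µM and 14.1, 15.8 and 12.8 at 125 µM, 2.07-fold above the control and 1.61-fold above 125 µM (contrast adjusted p = 0.0335). ADH5, the alcohol dehydrogenase that also clears formaldehyde, was at 234, 256 and 258 CPM at 2.5 µM, with the control and 125 µM overlapping each other at 154, 189.9 and 184 and at 171, 188 and 166 (contrast 0.50 ± 0.08, adjusted p = 0.0164), and 3 pseudogene features carry its name. TTR, the plasma carrier transthyretin, was at 135, 134 and 141 CPM in the controls, 186, 184 and 199 at 2.5 µM and 143, 172 and 148 at 125 µM (adjusted p = 0.0279). APOA5, an apolipoprotein that promotes triglyceride clearance, was at 51.8, 46.5 and 49.7 CPM at 2.5 µM beside 43.4, 40.6 and 45.4 in the controls, where the gap was narrow, and 28.8, 31.0 and 22.8 at 125 µM (adjusted p = 0.0252).

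Of 41 hepatocyte secreted proteins and identity genes, 5 were higher in the contrast (SERPINA7, APOH, TTR, AHSG and ARG1) and none lower, where 0.674 and 0.442% of all genes were, with a median contrast of 0.10. DESeq2 called 10 of them higher. Against the control alone 6 of the 41 were called higher and 5 lower at 2.5 µM (6.02 and 5.03% of all genes were), and 7 higher and 19 lower at 125 µM (20.3 and 19.9%). The libraries at 2.5 µM were all above the others in 3 of the 41 (7.32%, against 1.90% of all genes): TTR, APOA1 and AMBP, of which TTR passed the test. SERPINA7, the thyroxine-binding globulin, shows the other pattern that the contrast picks up. It measured 367, 323 and 402 CPM in the controls, 385, 397 and 333 at 2.5 µM and 184, 171 and 181 at 125 µM, so that 2.5 µM lay among the controls and 125 µM below. APOH had this pattern too, while AHSG measured 5129 ± 214 CPM in the controls, 7976 ± 805 at 2.5 µM and 6648 ± 759.9 at 125 µM, with 2.5 µM overlapping 125 µM. ARG1 instead fell at both concentrations, from 21.8 ± 7.76 CPM in the controls to 12.9 ± 2.10 at 2.5 µM and 2.03 ± 0.571 at 125 µM. The pairwise test called it lower at 2.5 µM than in the control (log2 fold change -0.74, adjusted p = 0.0411). Its positive contrast reflects the low level at 125 µM.

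Genes of glycolysis and of the hypoxia response leaned upwards at 2.5 µM. Of 40 tested, 5 were higher in the contrast (SLC2A3, BNIP3, CA9, TPI1 and PGK1) and none lower, where 0.674 and 0.442% of all genes were. An unadjusted p below 0.05 was found for 21 higher and 0 lower (1119 and 831 of all 12901 genes tested). The contrast was positive in 34 (6501 of all 12901), with a median of 0.22. All libraries at 2.5 µM lay above the others in 8 of the 40 (20.0%, against 1.90% of all genes) and below in none. At 2.5 µM 18 were called higher than the control and none lower (6.02 and 5.03% of all genes were). Against 125 µM, 16 were called higher at 2.5 µM and 5 lower (7.44 and 7.48%). At 125 µM 15 were called higher than the control and 9 lower (20.3 and 19.9%). CA9, the carbonic anhydrase known as a hypoxia marker, measured 65.1, 55.8 and 61.6 CPM in the controls, 74.0, 100.2 and 109 at 2.5 µM and 56.4, 73.5 and 55.1 at 125 µM. The lowest library at 2.5 µM was just above the highest at 125 µM (contrast 0.59 ± 0.12, adjusted p = 0.032), and CA9 overlaps ARHGEF39. BNIP3, a receptor for the removal of mitochondria, measured 393, 323 and 368 CPM in the controls, 422, 526 and 556 at 2.5 µM and 302, 352 and 344 at 125 µM (contrast 0.53 ± 0.09, adjusted p = 0.0193), and 4 pseudogene features carry its name.

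The glycolytic enzymes had smaller differences, at high levels. PGK1, phosphoglycerate kinase, measured 1216, 1301 and 1246 CPM in the controls, 1461, 1746 and 1877 at 2.5 µM and 1268, 1415 and 1285 at 125 µM (contrast 0.39 ± 0.08, adjusted p = 0.037). TPI1, triose phosphate isomerase, measured 658, 571 and 653 CPM in the controls, 752, 885 and 937 at 2.5 µM and 658, 695 and 671 at 125 µM (contrast 0.40 ± 0.08, adjusted p = 0.0322), and 4 pseudogene features carry its name. ENO1, enolase, had the same order, with 3758, 4108 and 4365 CPM at 2.5 µM beside 3217, 3029 and 3341 in the controls and 3128, 3488 and 3142 at 125 µM, at an adjusted p of 0.0528. The prolyl hydroxylase subunit P4HA1, the regulatory enzyme PFKFB4 and the MYC antagonist MXI1 were the others above, with adjusted p from 0.0528 to 0.12. SLC2A3, the glucose transporter GLUT3, had the largest contrast of the list (1.07 ± 0.16, adjusted p = 0.0112) but missed the order narrowly. It measured 335, 512 and 430.5 CPM in the controls, 846, 1093 and 1516 at 2.5 µM and 626, 849 and 619.6 at 125 µM, so that the lowest library at 2.5 µM and the highest at 125 µM were nearly equal. The lowest contrast of the list was that of ADM, a vasodilator peptide gene, at -0.23. Without 1 library, between 8 and 11 list members had all libraries at 2.5 µM above the others.

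The core letters of the hypoxia response element, ACGTG, were searched on both strands of the 250 bases before the start. They were present in 24 of 35 list members with a RefSeq promoter (68.6%), in 6 of the 8 members above (75.0%) and in 21.7% of 27305 genes. The promoters of CA9 (chr9:35673778-35673927, plus strand), BNIP3 (chr10:131981924-131982073, minus strand) and P4HA1 (chr10:73096867-73097016, minus strand) are printed as examples from the members above, from GRCh38.p14, 5′ to 3′ along the gene, with the match in capitals.
CA9: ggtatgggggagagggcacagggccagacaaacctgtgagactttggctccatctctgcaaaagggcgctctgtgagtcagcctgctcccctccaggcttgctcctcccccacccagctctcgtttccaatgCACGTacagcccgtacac
BNIP3: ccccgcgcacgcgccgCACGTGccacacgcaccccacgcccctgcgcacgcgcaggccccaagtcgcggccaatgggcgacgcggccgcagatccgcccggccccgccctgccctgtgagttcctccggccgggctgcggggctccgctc
P4HA1: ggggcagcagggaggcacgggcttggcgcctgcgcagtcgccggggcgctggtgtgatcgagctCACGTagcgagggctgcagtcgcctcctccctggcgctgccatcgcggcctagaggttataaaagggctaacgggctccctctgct
In BNIP3 the matches on both strands overlap in 1 palindrome that begins 134 bases before the start. The matches in CA9 and P4HA1 begin 18 and 86 bases before it.

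Genes of mitosis were, of the lists examined, the one with the largest share above. Of 44 tested, 13 had all libraries at 2.5 µM above the others (29.5%, against 1.90% of all genes) and none below, and all 44 had a positive contrast, with a median of 0.32. The test was passed by 3, all higher (CCNA2, AURKB and TOP2A), where 0.674% of all genes were called higher. An unadjusted p below 0.05 was found for 31, all higher (1119 of all 12901 genes tested were). Against the control alone 4 of the 44 were called higher and none lower (6.02 and 5.03% of all genes were), and against 125 µM 19 were called higher and none lower (7.44 and 7.48%). Between 125 µM and the control 10 were called lower and none higher, where 19.9 and 20.3% of all genes were. The summed reads of the list made up 0.174, 0.209 and 0.194% of reads in the controls, 0.216, 0.213 and 0.212% at 2.5 µM, and 0.171, 0.165 and 0.166% at 125 µM. The lowest library at 2.5 µM was thus above the highest control by little and above 125 µM by more. In bulk RNA, more cells in mitosis and more of these messages per cell cannot be told apart. Without replicate 2 of the control 21 of the 44 had the order, and 7 did after all libraries were thinned to the depth of the shallowest.

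AURKB, the Aurora B kinase of chromosome segregation, measured 15.3, 13.1 and 16.9 CPM in the controls, 22.8, 18.9 and 22.6 at 2.5 µM and 12.7, 10.9 and 15.4 at 125 µM (contrast 0.63 ± 0.13, adjusted p = 0.0329). The pairwise test called AURKB higher than 125 µM (adjusted p = 0.00458) and, narrowly, not higher than the control (adjusted p = 0.0503). CCNA2, cyclin A2, measured 30.8, 35.2 and 37.2 CPM in the controls, 50.2, 45.0 and 49.7 at 2.5 µM and 36.2, 37.5 and 36.7 at 125 µM (contrast 0.44 ± 0.09, adjusted p = 0.027), with the libraries at 125 µM close together and overlapping the controls, and its locus overlaps EXOSC9. TOP2A, DNA topoisomerase II alpha, overlapped the controls at 335, 364 and 307 against 311, 330.2 and 332 CPM and was lower at 125 µM, at 225, 222 and 229.8. The kinetochore genes SPC24 and NDC80 had the order with larger and less certain contrasts, 0.74 ± 0.19 (adjusted p = 0.0763) and 0.58 ± 0.15 (adjusted p = 0.085). CDK1, the kinase that starts mitosis, measured 15.8, 26.9 and 21.8 CPM in the controls, 34.4, 30.5 and 37.6 at 2.5 µM and 25.1, 29.1 and 28.3 at 125 µM, with the order and an adjusted p of 0.105. The other members above were MAD2L1, CENPE, KIF11, KIF23, KIF2C, KIF4A, CDCA8 and NUF2, with adjusted p from 0.0815 to 0.35. Outside the list, 3 genes of the cell cycle, picked after their values were seen, passed both criteria: the repressor E2F7 at 6.98, 6.79 and 8.08 CPM beside 2.94, 4.95 and 3.08 in the controls and 3.03, 3.90 and 5.14 at 125 µM (adjusted p = 0.0406), the spindle protein FAM83D at 32.5, 32.3 and 38.4 beside 19.6, 23.5 and 23.6 in the controls and 23.4, 23.7 and 25.0 at 125 µM (adjusted p = 0.0187), and the chromatin protein HMGB2 at 133, 127 and 147 beside 83.98, 109 and 106 in the controls and 101, 93.9 and 87.0 at 125 µM (adjusted p = 0.0263).

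**Figure D3:**
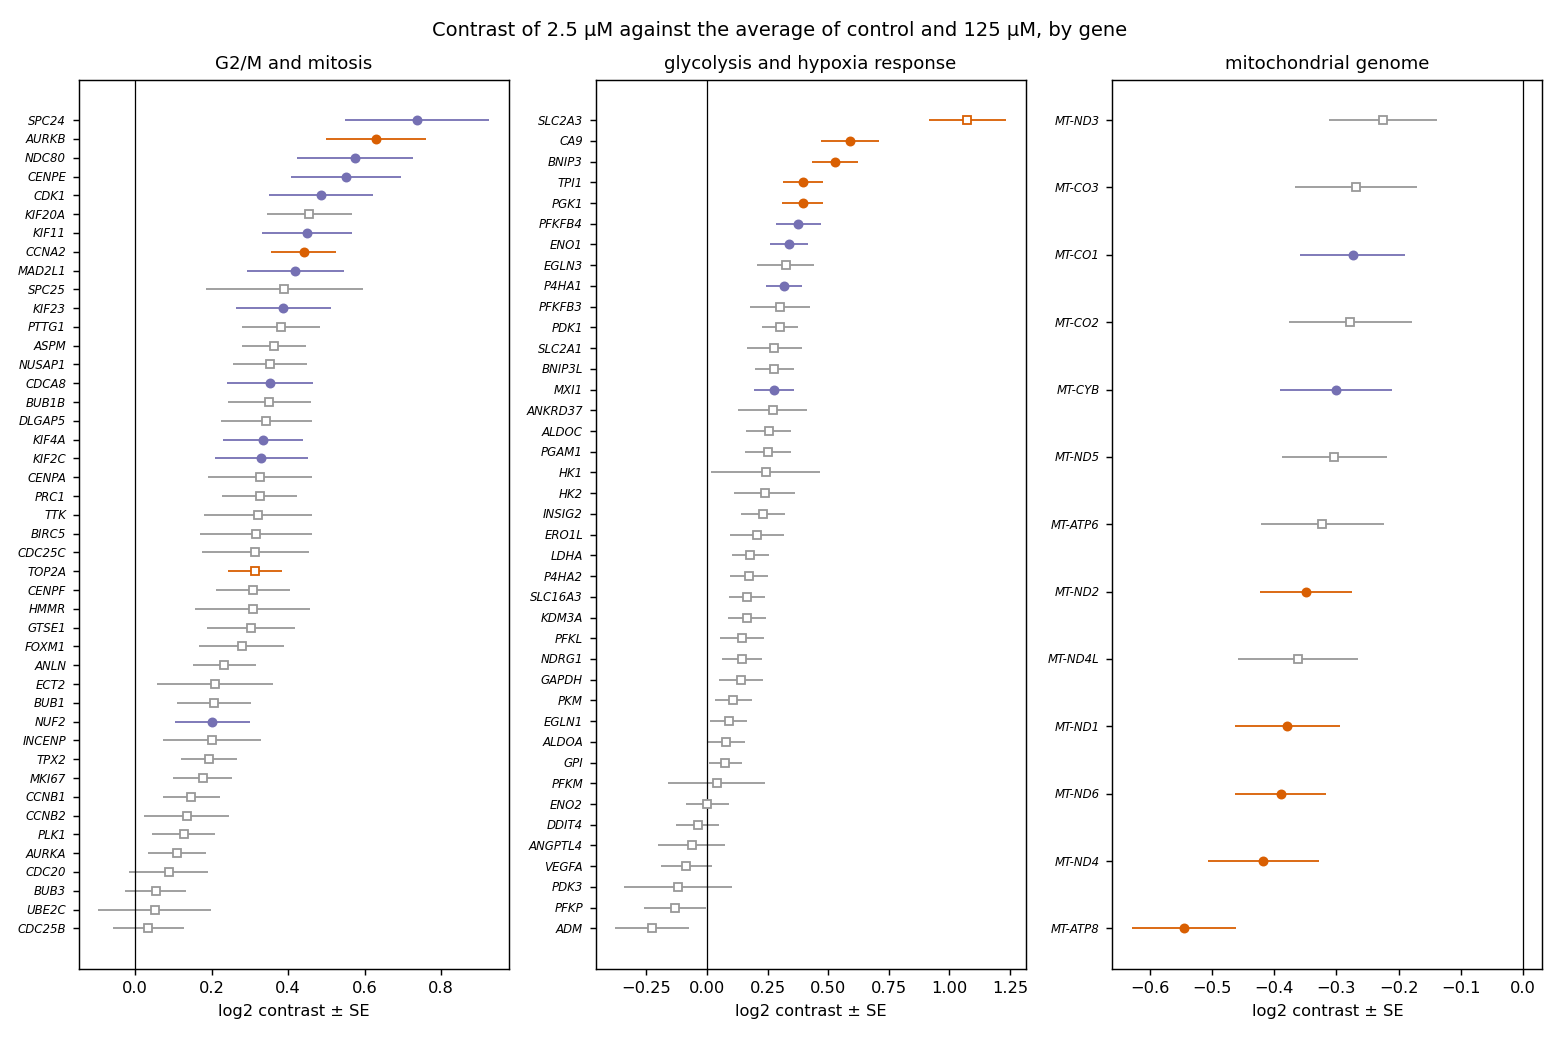
Log2 contrast of 2.5 µM against the average of control and 125 µM, with its SE, for each tested gene of 3 lists. Orange marks an adjusted p below 0.05, violet the order alone and grey neither; filled circles mark all 2.5 µM libraries above (both left panels) or below (right panel) the 6 others, open squares an overlap. All 44 mitosis genes lie above 0 and all 13 mitochondrial genes below 0.

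Promoters of mitosis genes are known for a CHR element, TTTGAA, and for CCAAT boxes, so these letters were searched on both strands of the same 250 bases. TTTGAA was present in 22 of 37 list members with a RefSeq promoter (59.5%, against 16.1% of 27305 genes) and CCAAT in 31 (83.8%, against 37.0%). Among the 13 members above, the counts were 5 and 9, or 38.5 and 69.2%, which is not higher than in the list. Of the 5, the promoters of KIF23 (chr15:69414199-69414348), KIF4A (chrX:70289954-70290103) and CDCA8 (chr1:37692366-37692515), all on the plus strand of GRCh38.p14, are printed as examples with both motifs in capitals (CCAAT read on the other strand is ATTGG).
KIF23: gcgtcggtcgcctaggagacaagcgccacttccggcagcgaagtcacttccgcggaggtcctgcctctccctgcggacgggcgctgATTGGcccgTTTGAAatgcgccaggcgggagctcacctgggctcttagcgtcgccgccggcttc
KIF4A: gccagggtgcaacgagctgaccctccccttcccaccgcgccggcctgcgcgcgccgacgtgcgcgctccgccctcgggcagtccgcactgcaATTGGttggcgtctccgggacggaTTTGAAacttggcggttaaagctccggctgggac
CDCA8: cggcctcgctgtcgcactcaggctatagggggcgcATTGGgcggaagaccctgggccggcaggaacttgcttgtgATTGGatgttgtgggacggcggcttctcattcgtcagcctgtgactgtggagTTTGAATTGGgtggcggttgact
TTTGAA begins 55, 34 and 23 bases before the start, and in CDCA8 it overlaps a CCAAT match.

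The genes of DNA replication and of entry into S phase followed the mitosis genes in part. Of 48 tested, 47 had a positive contrast, with a median of 0.28, 5 had the order above (10.4%, against 1.90% of all genes) and 1, MCM2, passed the test (0.674% of all genes were called higher). MCM2, a subunit of the replicative helicase, measured 39.1, 57.6 and 53.4 CPM in the controls, 76.8, 72.2 and 89.3 at 2.5 µM and 60.4, 59.4 and 47.0 at 125 µM (contrast 0.57 ± 0.12, adjusted p = 0.0322), and it overlaps TPRA1. The other 4 with the order were MCM7, RRM1, TK1 and SLBP, with adjusted p from 0.0629 to 0.277. Of the 48, 17 were called higher at 125 µM than in the control and 1 lower (20.3 and 19.9% of all genes were), and 18 were called higher at 2.5 µM than in the control and none lower (6.02 and 5.03%). The libraries at 2.5 µM thus often lay near those at 125 µM: RRM1, a ribonucleotide reductase subunit, measured 54.8, 54.4 and 65.4 CPM at 2.5 µM and 49.0, 53.8 and 52.5 at 125 µM, beside 29.3, 37.4 and 41.3 in the controls.

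**Figure D4:**
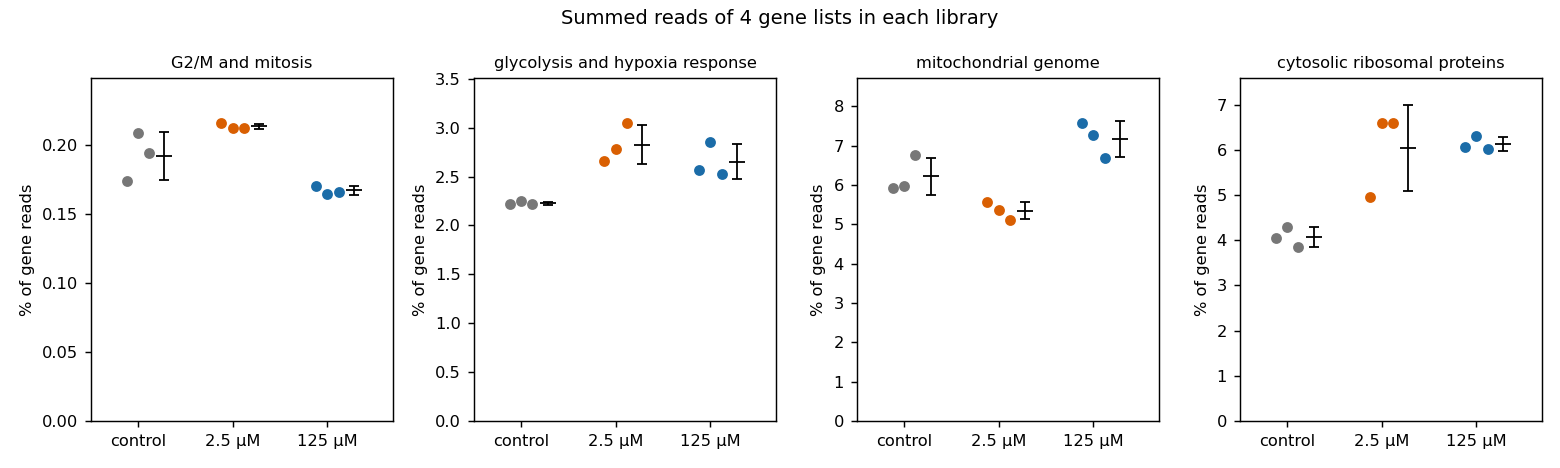
Summed reads of 4 gene lists as a percentage of gene reads in each library (points), with the mean and SD of each group (bars). At 2.5 µM the mitosis genes are above and the mitochondrial genome is below all 6 other libraries, while glycolysis and ribosomal protein genes overlap 125 µM.

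Messages of the mitochondrial genome were, of the lists examined, the one with the largest share below. All 13 protein-coding genes had a negative contrast (6400 of all 12901 genes tested did), with a median of -0.32. All 13 were lower with an unadjusted p below 0.05 (831 of all 12901 were). The libraries at 2.5 µM were all below the others in 7 (53.8%, against 2.09% of all genes). Of these, 5 passed the test: MT-ATP8, MT-ND4, MT-ND1, MT-ND2 and MT-ND6 (0.442% of all genes were called lower). At 2.5 µM 3 of the 13 were called lower than the control and 11 lower than 125 µM (5.03 and 7.48% of all genes were). None was called higher at 2.5 µM than either group. At 125 µM 3 were called higher than the control and none lower (20.3 and 19.9%). The 13 genes share 1 genome, and all but MT-ND6 are encoded on the same strand, so they are not separate measurements. All reads of the mitochondrial genome together made up 7.06% ± 0.210 of the gene reads at 2.5 µM (SD of 3 libraries), beside 7.96% ± 0.594 in the controls and 9.35% ± 0.442 at 125 µM. Without replicate 2 of the control, 11 of the 13 had the order.

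MT-ATP8, an ATP synthase subunit, had the largest contrast of them (-0.54 ± 0.08, adjusted p = 0.0126). It measured 1308, 1037 and 1239.8 CPM in the controls, 910.1, 904 and 819 at 2.5 µM and 1384, 1365 and 1373 at 125 µM, and it overlaps MT-ATP6, so part of its reads could belong to either. MT-ND6, the complex I subunit encoded on the other strand from the rest, measured 1328, 1168 and 1333 CPM in the controls, 985, 928 and 929 at 2.5 µM and 1186, 1219 and 1217 at 125 µM and differed from both groups (1.35-fold and 1.27-fold, contrast adjusted p = 0.0261). MT-ND4, a complex I subunit and the most abundant of those that passed, measured 9488, 8865 and 10638 CPM in the controls, 8283, 8426 and 7716 at 2.5 µM and 12891, 12607 and 11230.0 at 125 µM (adjusted p = 0.0371). MT-ND4 was called lower than 125 µM only: against the control the difference was 1.19-fold with an adjusted p of 0.127. MT-ND1 and MT-ND2, also of complex I, had this same pattern, with 1.20-fold and 1.14-fold against the control (adjusted p = 0.0897 and 0.173). MT-CO1 and MT-CYB had the order without passing (adjusted p = 0.132 and 0.124). Of 72 respiratory chain genes of the nucleus tested, none was below the others at 2.5 µM and 1 was above (NDUFA2, 1.39%), shares near those of all genes (2.09 and 1.90%), and 1 was called higher in the contrast, CYC1 (0.674% of all genes were). Against the control 36 of the 72 were called higher at 2.5 µM and none lower, where 6.02 and 5.03% of all genes were, and at 125 µM 53 were called higher and 1 lower (20.3 and 19.9%).

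Among the nuclear genes below, several encode proteins of the actin cytoskeleton. VASP, which promotes actin filament growth, measured 113, 97.0 and 118 CPM in the controls, 80.4, 79.5 and 67.9 at 2.5 µM and 102, 95.5 and 115 at 125 µM, a difference from both groups (1.42-fold and 1.35-fold, contrast adjusted p = 0.027). SPIRE1, an actin nucleator, measured 50.7, 42.5 and 42.1 CPM in the controls, 32.1, 35.3 and 29.5 at 2.5 µM and 55.8, 47.4 and 59.5 at 125 µM (contrast -0.59 ± 0.10, adjusted p = 0.0183). DBN1, the actin-binding protein drebrin, was at 52.3, 62.6 and 55.3 CPM beside 70.8, 71.6 and 65.4 in the controls and 81.2, 79.7 and 84.1 at 125 µM (adjusted p = 0.0314). PDLIM7, an adaptor at actin filaments, lay barely under the controls, at 18.3, 18.5 and 18.2 CPM beside 19.7, 18.6 and 19.2, and far under 31.7, 35.9 and 38.2 at 125 µM. Its pairwise difference from the control was -0.07 on the log2 scale (adjusted p = 0.753). These genes were grouped after their values were seen. In the list of actin, YAP and SRF target genes, 1 of 28 tested, SRF, was below the others (3.57%) and none above. These shares were near those of all genes (2.09 and 1.90%). Against the control 8 of the 28 were called higher at 2.5 µM and none lower, where 6.02 and 5.03% of all genes were. At 125 µM 19 were called higher than the control and 3 lower (20.3 and 19.9%). The list as a whole was thus not lower at 2.5 µM than in the control.

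Of the other nuclear genes below, SQSTM1, FTL and MCL1, picked after their values were seen, lay next to the controls and well under 125 µM. SQSTM1, the autophagy receptor p62, measured 277, 277 and 235 CPM in the controls, 218, 225 and 217 at 2.5 µM and 384, 352 and 428 at 125 µM (contrast -0.54 ± 0.08, adjusted p = 0.0126). It overlaps C5orf45 and MGAT4B. FTL, the ferritin light chain, measured 4384, 4860.2 and 4315 CPM in the controls, 4189, 4054 and 4082 at 2.5 µM and 6606, 5700.1 and 6021 at 125 µM (adjusted p = 0.0488), and 16 pseudogene features carry its name. MCL1, an inhibitor of apoptosis, was at 229, 249 and 248 CPM beside 250.3, 255 and 255 in the controls and 347, 387 and 377 at 125 µM (adjusted p = 0.032). TRIB1, a pseudokinase that directs proteins to degradation, was instead lower than both groups, at 66.5, 79.8 and 77.6 CPM beside 96.7, 90.0 and 91.1 in the controls and 119.7, 113 and 114 at 125 µM (contrast -0.48 ± 0.08, adjusted p = 0.0171). For SQSTM1, FTL and MCL1 the pairwise test called the difference from 125 µM and not that from the control, at adjusted p of 0.0845, 0.357 and 0.619 against the control.

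The remaining named genes below differed in which group they lay closer to. SLC45A3, the solute carrier prostein, measured 13.9, 5.34 and 9.75 CPM in the controls, 5.07, 4.55 and 3.23 at 2.5 µM and 8.86, 12.1 and 10.6 at 125 µM, with a control library close to the treated ones (contrast -1.18 ± 0.26, adjusted p = 0.0406). ACADVL, the very long chain acyl-CoA dehydrogenase of mitochondrial fat oxidation, measured 239, 235 and 222 CPM in the controls, 199, 183 and 166 at 2.5 µM and 251, 247 and 241 at 125 µM (contrast -0.38 ± 0.07, adjusted p = 0.027), and it overlaps DLG4. It was 1 of 2 members of the 27 fatty acid oxidation genes that were below, with the lipid droplet protein PLIN4 (7.41%, against 2.09% of all genes). None was above (1.90% of all genes were). ACADVL was the only 1 called in the contrast, where 0.442% of all genes were called lower. ZC3HAV1, an antiviral zinc finger protein, differed from the control (1.42-fold) and not from 125 µM (adjusted p = 0.0737), and TRIM25, a ubiquitin ligase that acts with it, was at 66.0, 67.8 and 54.9 CPM beside 78.8, 71.8 and 78.2 in the controls and 91.1, 89.3 and 95.1 at 125 µM. EHBP1L1, an effector of the membrane traffic GTPase Rab8, had a contrast of -0.54 ± 0.11 (adjusted p = 0.0318) and was called lower than 125 µM (adjusted p = 0.00184) and not lower than the control (adjusted p = 0.0557). TMEM87B, a Golgi membrane protein, was at 41.0, 42.4 and 38.0 CPM beside 64.4, 55.6 and 57.0 in the controls and 50.5, 53.7 and 63.5 at 125 µM (adjusted p = 0.0263). ANTXR2, an anthrax toxin receptor that binds matrix proteins, was lower than both groups at 20.7, 22.6 and 19.8 CPM beside 30.8, 25.9 and 28.0 in the controls and 36.5, 37.3 and 47.0 at 125 µM, with a contrast adjusted p of 0.0171. FAM102A lay closer to the controls (contrast adjusted p = 0.0187) and was called lower than 125 µM only (adjusted p = 0.000262, beside 0.111 against the control).

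MALAT1, a long noncoding RNA kept in the nucleus, met the order by the smallest margin. It measured 319.6, 240.0 and 219 CPM in the controls, 163, 174 and 135 at 2.5 µM and 223, 219 and 175 at 125 µM (contrast -0.55 ± 0.12, adjusted p = 0.0445). The lowest other library was 1.003 times the highest at 2.5 µM, and 84.3% of its reads were assigned to introns. In exon reads alone the contrast was -0.38 with an adjusted p of 0.115, past the threshold no longer. SNHG16, a host gene of small nucleolar RNAs, went the other way at 101, 88.8 and 86.4 CPM beside 61.0, 64.5 and 63.6 in the controls and 70.8, 75.4 and 76.0 at 125 µM (contrast 0.44 ± 0.07, adjusted p = 0.0171), and it overlaps ST6GALNAC2. Of 16 genes tested in that list, 2 were above (SNHG16 and SNHG1, 12.5%, against 1.90% of all genes). MALAT1 alone was below (6.25%, against 2.09% of all genes).

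**Figure D5:**
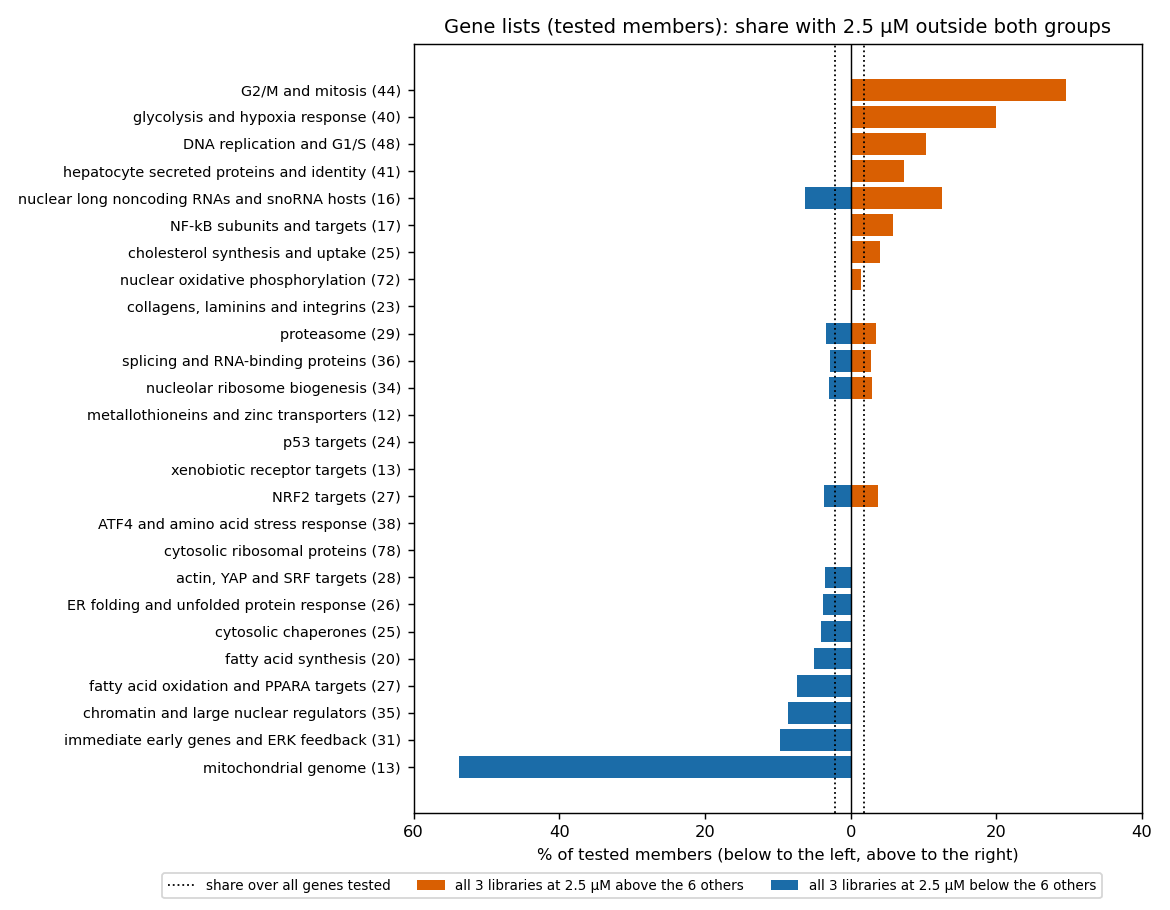
Share of the tested members of each gene list (number in brackets, lists with at least 10 tested) whose 3 libraries at 2.5 µM all lay above (orange, to the right) or all below (blue, to the left) the 6 other libraries. Dotted lines mark 1.90 and 2.09% over all genes tested; the mitochondrial genome (53.8% below), mitosis (29.5% above) and glycolysis (20.0% above) stand furthest out.

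Other programmes had few or no genes outside both groups. None of 78 cytosolic ribosomal protein genes was outside, although 73 had a positive contrast (median 0.29). In edgeR's quasi-likelihood test 3 were called higher, RPS21, RPL23A and RPL31 (0.674% of all genes were), while DESeq2 called 19 higher. RPS21 measured 308, 262 and 274 CPM in the controls, 414, 676 and 682 at 2.5 µM and 537, 567 and 547 at 125 µM, so that both treated groups were above the controls and overlapped each other. None of 38 ATF4 and amino acid stress genes was outside, and edgeR's quasi-likelihood test and DESeq2 called 0 of them (unadjusted p below 0.05 in edgeR for 3 higher and 5 lower). The same held for 24 p53 targets (1 and 3 unadjusted) and for 13 xenobiotic receptor targets (1 and 4). Of 12 metallothionein and zinc transporter genes, the manganese exporter SLC30A10 was called higher (0.63 ± 0.13, adjusted p = 0.032) and none was outside. AJUBA, an adaptor of cell contacts, was called higher and ITGA2, an integrin subunit, lower, both with 2.5 µM overlapping the controls. ESAM, an endothelial adhesion gene, was called lower in the same way, at 1.63, 1.95 and 1.62 CPM beside 1.57, 1.58 and 2.31 in the controls and 11.9, 12.5 and 9.18 at 125 µM.

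The genes nearest to the limits of both criteria show how narrow they were. FTL and KRT80 were the last to pass the test among genes with the order, at adjusted p of 0.0488 and 0.0471, and JUN and SGK2 the first to miss it, both at 0.0511. MALAT1 and MT-ND1 had the smallest gaps between the libraries at 2.5 µM and the nearest other library, with ratios of 1.003 and 1.005. SLC2A3 and the autophagy gene MAP1LC3B passed the test and missed the order by ratios of 0.996 and 0.995.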

How the data were processed

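RNA from 9 HepG2 cultures was sequenced from stranded polyadenylated libraries, aligned to hg19 and assigned to genes with CLC Genomics Workbench, per the labels; whether counting used strand is not given in the sources used here. Per the file headers, total gene reads are raw whole-number counts that cover exon and intron reads. In each library exon and intron reads added up to slightly less than the total gene reads. RPKM, per the file headers, scales exon reads by exon length and depth. The third measure, a signal, was quantile-normalised by the authors (series' design text). RPKM and signal served only in alternatives.

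Each file holds 57773 features. Genes with enough reads (edgeR filterByExpr) numbered 12901. Libraries were scaled by TMM, and edgeR 4.0.16 (R 4.3.3) fitted 3 groups with its quasi-likelihood test, Benjamini-Hochberg over all genes tested, threshold 0.05. The contrast was 2.5 µM minus the average of control and 125 µM, a log2 value given ± SE; pairwise contrasts came from the same fit. The fit has no replicate block. Steps were tested on simulated counts. Alternatives used DESeq2 1.42.0 and limma 3.58.1, other scalings, filters and read types, thinning and leaving out each library. Total depth ranged from 2480964 to 11885877 reads; 3 libraries a group limit the precision.

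The members and gene lists were chosen with earlier results of these data known. Named were, per direction, the 12 largest contrasts and the 5 most abundant others among genes with at least 1 CPM that met both criteria, and up to 4 called members of each list; other members named in the text were picked after their values were seen. Gene positions are those of the files on hg19. Promoters are from RefSeq on GRCh38.p14, matched by symbol.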

Additional observations from a re-analysis of the deposited data

How the results depend on the processing

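The 71 genes that met both criteria kept their direction in every alternative in which they were tested (NANOS3 had too few exon reads to be tested, and NANOS3, GNMT and KRT80 too few reads after thinning to the shallowest library), but the number past the threshold varied. The calls of the contrast, 87 higher and 57 lower, were 169 and 86 with DESeq2's Wald test, 425 and 205 without a filter on low counts, 4 and 9 with limma on quantile-normalised values, 3 and 4 with limma on RPKM, and 0 and 1 (EGR1) with the control and 125 µM as 1 group of 6, a fit that counts their difference as spread. Exon reads gave 145 higher. With the order as well, the 38 above and 33 below became 59 above with DESeq2, 74 above with exon reads, 101 and 56 without a filter, 3 and 7 with quantile values, 2 and 3 with RPKM, and 0 and 1 with 1 group of 6. Calls against both groups, 35 higher and 18 lower, became 83 and 28 without a filter, 13 and 6 with quantile values, 8 and 3 with RPKM, and 22 higher after thinning. Called members of all gene lists, 21 higher and 13 lower, became 54 and 21 with DESeq2, 39 higher with exon reads, 32 higher with upper-quartile scaling, 116 and 38 without a filter, 0 and 1 with quantile values, with RPKM and with 1 group of 6. The mitosis genes above numbered 7 after thinning.

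Leaving out 1 library gave 7 to 272 calls higher and 6 to 98 lower, 312 to 666 genes above and 298 to 648 below, 3 to 179 above and 3 to 63 below with both criteria, 11 to 69 higher and 4 to 27 lower against both groups, and 2 to 111 list members higher and 1 to 20 lower. Fewer libraries to exceed makes the order easier to meet. The order held for 14 to 21 mitosis genes, 8 to 11 glycolysis and hypoxia genes and 7 to 11 mitochondrial genes. The differences in read share between 2.5 µM and the 6 others were -0.921 to 0.488 percentage points for introns, 0.667 to 1.49 for ribosomal proteins and -1.81 to -1.38 for the mitochondrial genome. Same-numbered libraries correlated between -0.241 and 0.184 in their deviations, and unlike-numbered ones between -0.268 and 0.268. Between the control and 125 µM the same-numbered pairs were higher, at 0.0597 to 0.184, than the others, at -0.159 to 0.0443. These values do not settle whether the numbers pair libraries. With the replicate number as a block, 75 genes were higher and 44 lower, and 51 of the 71 stayed past the threshold. The cause of these shifts was not tested. The median contrast of all genes lay between -0.022 and 0.015 on the log2 scale in every alternative run. Groups of 3 libraries limit what a difference of 1.3-fold can show.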

Other observations

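Of 35 chromatin and large nuclear regulators tested, 29 had a negative contrast, with a median of -0.09 beside 0.001 over all genes, and 3 had all libraries at 2.5 µM below the others (8.57%, against 2.09% of all genes). These were the chromatin remodeller subunit ARID1A, the corepressor NCOR1 and the ubiquitin ligase HERC1. NCOR1 measured 173, 181 and 165 CPM in the controls, 145, 148 and 146 at 2.5 µM and 169, 156 and 157 at 125 µM, with an adjusted p of 0.202 in edgeR's quasi-likelihood test. None of the 35 passed that test or DESeq2's, and 6 had an unadjusted p below 0.05 in edgeR, all lower.

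Single genes of other lists also had the order, in numbers close to the shares over all genes (1.90% above and 2.09% below). Of 25 cytosolic chaperone genes tested, 1, HSPB1, was below (4.0%) and none above. HSPB1, a small heat shock protein, measured 38.4, 49.5 and 41.6 CPM in the controls, 31.6, 35.3 and 32.3 at 2.5 µM and 40.9, 44.5 and 41.5 at 125 µM, with an adjusted p of 0.0889 in edgeR's quasi-likelihood test. NFE2L2, which encodes the transcription factor NRF2, was above at 209, 252 and 242 CPM, beside 194, 203 and 201 in the controls and 196, 193 and 207 at 125 µM (adjusted p = 0.135). In the list of 27 NRF2 targets tested, NFE2L2 alone was above and FTL alone below (3.7% each). Only FTL was called in the contrast, lower.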
